A study of Mus musculus with 5 samples.

Results

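The 9 genes described here encode or bind a hyaluronan and proteoglycan matrix: Has1, Has2, Cd44, Vcan, Tnc, Dcn, Lum, Bgn and Prg4. They were listed by name for their role in this matrix, and all 9 were found among the 21617 genes of the deposited count table. The study profiled cells of foreign body granulomas, the tissue that forms around an implanted material, by droplet single-cell RNA-seq. The kit reads transcripts at their 3′ end, and a molecular identifier (UMI) marks each transcript once. The mouse libraries were granuloma around silk at 4 weeks, granuloma around silk at 2 weeks, granuloma around sponge at 4 weeks, granuloma around sponge at 2 weeks, and a control library of macrophages elicited with thioglycollate, an irritant. The labels give no strain, genotype, sex or age of the mice, nor the number of mice in a library. Each group had 1 library, so no test between groups was possible, no p-value is given, and every interval covers counting error only. The control library came from elicited cells and not from granuloma tissue, so material, tissue source and cell isolation cannot be told apart in comparisons with it.

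Hyaluronan is a long unsulfated sugar polymer that synthases of the Has family extrude through the cell membrane. CD44 is its main cell surface receptor, and versican, the product of Vcan, binds it through a link domain and carries chondroitin sulfate chains that swell the early, loose wound matrix. Tenascin-C binds versican-type proteoglycans and is known from provisional matrix, whereas the small leucine-rich proteoglycans decorin, lumican and biglycan bind collagen fibrils in more mature tissue, and lubricin, the product of Prg4, coats sliding surfaces and can bind CD44.

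The libraries held 1873 cells for silk at 4 weeks, 10231 for silk at 2 weeks, 7701 for sponge at 4 weeks, 12347 for sponge at 2 weeks and 9039 for the control, with medians of 3818 to 7109 UMIs per cell. Cell classes and subclusters are the authors' deposited names. The fibroblast class (subclusters F1 to F4) held 211, 798, 1495 and 2127 cells in silk at 4 weeks, silk at 2 weeks, sponge at 4 weeks and sponge at 2 weeks, and 1 cell in the control. The class of monocytes and macrophages (C1 to C8 and C10, written Mo-Mac) held 1045, 7350, 4605 and 7113 cells in the granulomas, in that order, and 7783 in the control. All 8 fibroblast markers, such as Col1a1, Col3a1 and Pdgfra, were detected in F1 and in F2 of each granuloma library. Across the libraries 153 cell barcodes occurred in more than 1 library, which touches 306 cells or 0.743% of all cells. Levels are UMI counts scaled to a class sum of 1e6 (CPM).

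Most of the matrix genes were fibroblast transcripts. Of all Dcn UMIs in a library, the deposited fibroblast class held 99.5% in silk at 4 weeks, 98.9% in silk at 2 weeks, 98.6% in sponge at 4 weeks and 98.3% in sponge at 2 weeks. The shares in this paragraph cover whole deposited classes, including the KC, low-quality and C9 cells that the class levels leave out. F1 to F4 alone held 55167 of the 60089 Dcn UMIs in silk at 2 weeks. For Has2 the fibroblast share was 89.2%, 97.3%, 97.1% and 90.6% in the same order. Cd44 and Vcan did not follow this pattern. The deposited Mo-Mac class, C9 included, held 76.0%, 73.9%, 55.4% and 51.9% of Cd44 UMIs in the same granulomas and 96.1% in the control. Vcan was divided between the deposited classes. Fibroblasts held 79.5%, 56.1%, 85.0% and 71.7% of its UMIs, and Mo-Mac cells with C9 held 16.8%, 40.7%, 13.0% and 24.4%.

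**Figure D1:**
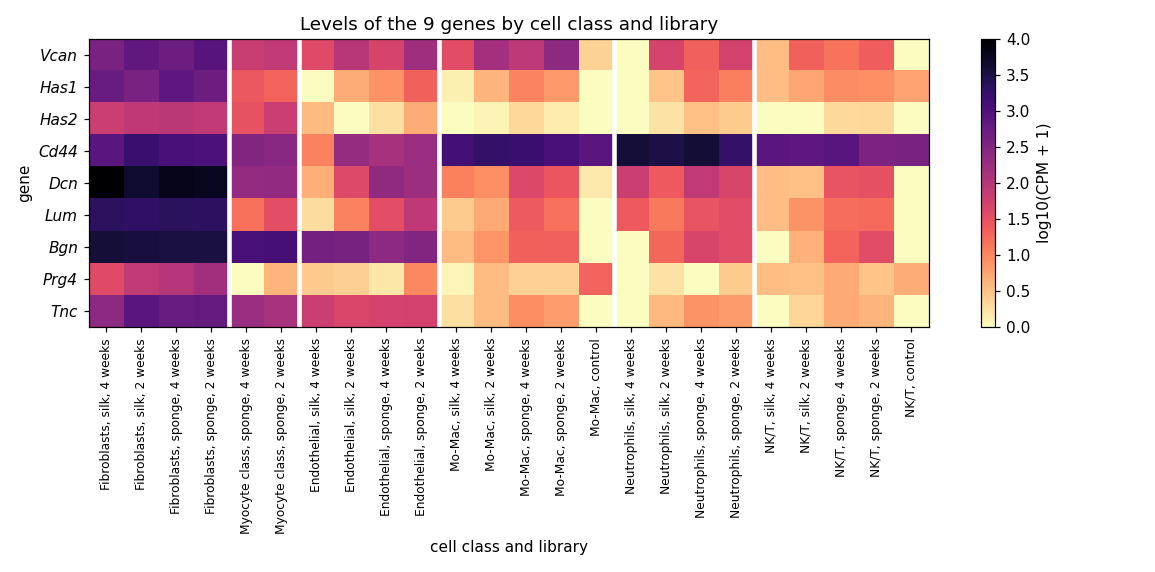
Level of each of the 9 genes, as log10(CPM + 1), in each cell class and library with at least 50 cells; columns are grouped by class and rows are genes. The Cd44 row is dark in fibroblasts, Mo-Mac cells, neutrophils and NK/T cells, whereas Dcn, Lum and Bgn are darkest in the 4 fibroblast columns.

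In fibroblasts around silk at 4 weeks, Cd44 and Tnc were at least 2-fold lower and Dcn at least 2-fold higher than around silk at 2 weeks, and the other 6 genes were not called. Tnc and Prg4 were also at least 2-fold lower than around sponge at 4 weeks. Lum and Bgn levels lay within a narrow range in all 4 granulomas. Between 4 and 2 weeks around sponge, none of the 9 genes was 2-fold apart. A gene counts as 2-fold apart here if the library with more of it has 100 or more UMIs and 50 or more CPM, and the ratio is still 2-fold after 10 CPM is added to both levels.

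The hyaluronan synthases stayed within 2-fold in the 4 fibroblast comparisons. Has1 had 544 CPM in silk at 4 weeks, 370.4 CPM in silk at 2 weeks, 721 CPM in sponge at 4 weeks and 512 CPM in sponge at 2 weeks. It was thus lower around silk than around sponge at both times, and higher at 4 than at 2 weeks around both materials, with a log2 ratio of 0.56 (95% interval 0.47 to 0.64) around silk and 0.49 (0.46 to 0.53) around sponge. Has2 had 61.2, 81.1, 86.0 and 74.1 CPM in the same order, and its largest log2 ratio in size was -0.49 (-0.73 to -0.26), for silk against sponge at 4 weeks. F1 had more Has1 than F2 in every granuloma, and the mixture of subclusters differed between libraries. F1 made up 45.7%, 11.1%, 51.1% and 58.8% of the deposited fibroblasts, in the same order. With the same subcluster weights in both libraries (their pooled UMIs, over subclusters with at least 50 cells in each), the Has1 ratio of silk at 4 against 2 weeks was -0.04 in place of 0.56, and that of silk against sponge at 2 weeks was 0.06 in place of -0.47. Within sponge, Has1 was higher at 4 than at 2 weeks in each subcluster, with log2 ratios of 0.58 in F1, 0.84 in F2, 0.94 in F3 and 0.34 in F4.

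Cd44, the hyaluronan receptor, had 792 CPM in fibroblasts of silk at 4 weeks, 1681 CPM in silk at 2 weeks, 1129 CPM in sponge at 4 weeks and 1052 CPM in sponge at 2 weeks. Silk at 4 weeks was the lowest and silk at 2 weeks the highest, and the sponge libraries lay between them. The log2 ratio of silk against sponge was -0.51 (-0.58 to -0.45) at 4 weeks, and at 2 weeks it was 0.68 (0.65 to 0.70). Around silk, Cd44 was lower at 4 than at 2 weeks by a log2 ratio of -1.09 (-1.15 to -1.02), and around sponge the ratio was 0.10 (0.08 to 0.13). With the same subcluster weights the silk ratio of 4 against 2 weeks was -0.67, under 2-fold. Silk against sponge was then -0.68 at 4 weeks and 0.34 at 2 weeks.

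Vcan had 389 CPM in silk at 4 weeks, 688 CPM in silk at 2 weeks, 514 CPM in sponge at 4 weeks and 857 CPM in sponge at 2 weeks. Both 4-week libraries lay under both 2-week libraries. The log2 ratio of 4 against 2 weeks was -0.82 (-0.92 to -0.73) around silk and -0.74 (-0.77 to -0.71) around sponge. At each time silk was lower than sponge, by -0.40 at 4 weeks and -0.32 at 2 weeks. With the same subcluster weights the ratio of 4 against 2 weeks was -0.49 around silk and -0.78 around sponge. Silk against sponge was then -0.53 at 4 weeks and -0.19 at 2 weeks. With every cell thinned to 1000 UMIs, the share of fibroblasts with a Vcan UMI was 24.7%, 45.0%, 28.7% and 51.8% in the order silk at 4 weeks, silk at 2 weeks, sponge at 4 weeks and sponge at 2 weeks, against 64.5%, 94.1%, 78.6% and 96.4% before thinning. Median depths of these fibroblasts were 10133, 13979, 12055 and 15207 UMIs.

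Tnc, which encodes tenascin-C, had 250.2 CPM in silk at 4 weeks, 775 CPM in silk at 2 weeks, 549.8 CPM in sponge at 4 weeks and 618 CPM in sponge at 2 weeks. Silk at 4 weeks stood below the other 3 libraries. Its log2 ratio was -1.63 (-1.75 to -1.52) against silk at 2 weeks and -1.13 (-1.25 to -1.02) against sponge at 4 weeks. Silk against sponge at 2 weeks gave 0.33, and -0.21 with the same subcluster weights. The 662 Tnc UMIs of silk at 4 weeks came from 49 of 211 cells, and 1 cell held 16.9% of them. After thinning, 7.58% of fibroblasts had a Tnc UMI in silk at 4 weeks, 40.3% in silk at 2 weeks, 21.9% in sponge at 4 weeks and 28.8% in sponge at 2 weeks. Mo-Mac cells, taken as the background for Tnc, had a Tnc UMI in 0.117%, 0.358%, 0.906% and 0.634% of thinned cells in the same order, and in 0.383%, 1.40%, 3.28% and 3.11% of unthinned cells.

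Dcn, the decorin gene, had 9831 CPM in silk at 4 weeks, 4390.3 CPM in silk at 2 weeks, 6482 CPM in sponge at 4 weeks and 5792 CPM in sponge at 2 weeks. Silk at 4 weeks was the highest and silk at 2 weeks the lowest. The ratio of 4 against 2 weeks was 1.16 (1.14 to 1.18) around silk and 0.16 (0.15 to 0.17) around sponge, and silk against sponge was 0.60 at 4 weeks and -0.40 at 2 weeks. With the same subcluster weights the silk ratio of Dcn was 0.71, under 2-fold. Silk against sponge was then 0.63 at 4 weeks and -0.007 at 2 weeks. Lum, the lumican gene, had 2172 CPM in silk at 4 weeks, 1957 CPM in silk at 2 weeks, 2279 CPM in sponge at 4 weeks and 2119.9 CPM in sponge at 2 weeks. Bgn, the biglycan gene, had 3798 CPM in silk at 4 weeks, 3418 CPM in silk at 2 weeks, 3304 CPM in sponge at 4 weeks and 3314 CPM in sponge at 2 weeks. The log2 ratios of Lum and Bgn in the 4 comparisons ranged from -0.12 to 0.20. Dcn and Lum are neighbours on chromosome 10, 46984 bases apart and on the same strand.

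Prg4 had the fewest counts in silk at 4 weeks, where fibroblasts held 99 UMIs. Its level was 37.4 CPM there, 77.2 CPM in silk at 2 weeks, 99.96 CPM in sponge at 4 weeks and 155 CPM in sponge at 2 weeks. Silk was lower than sponge at both times, with a log2 ratio of -1.41 (-1.72 to -1.13) at 4 weeks, and at 2 weeks one of -1.01 (-1.11 to -0.91) that lay under 2-fold once 10 CPM was added (-0.92). In silk at 4 weeks 1 cell held 24.2% of the Prg4 UMIs. With the same subcluster weights the ratio of silk against sponge was -0.96 at 4 weeks and -0.56 at 2 weeks.

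**Figure D2:**
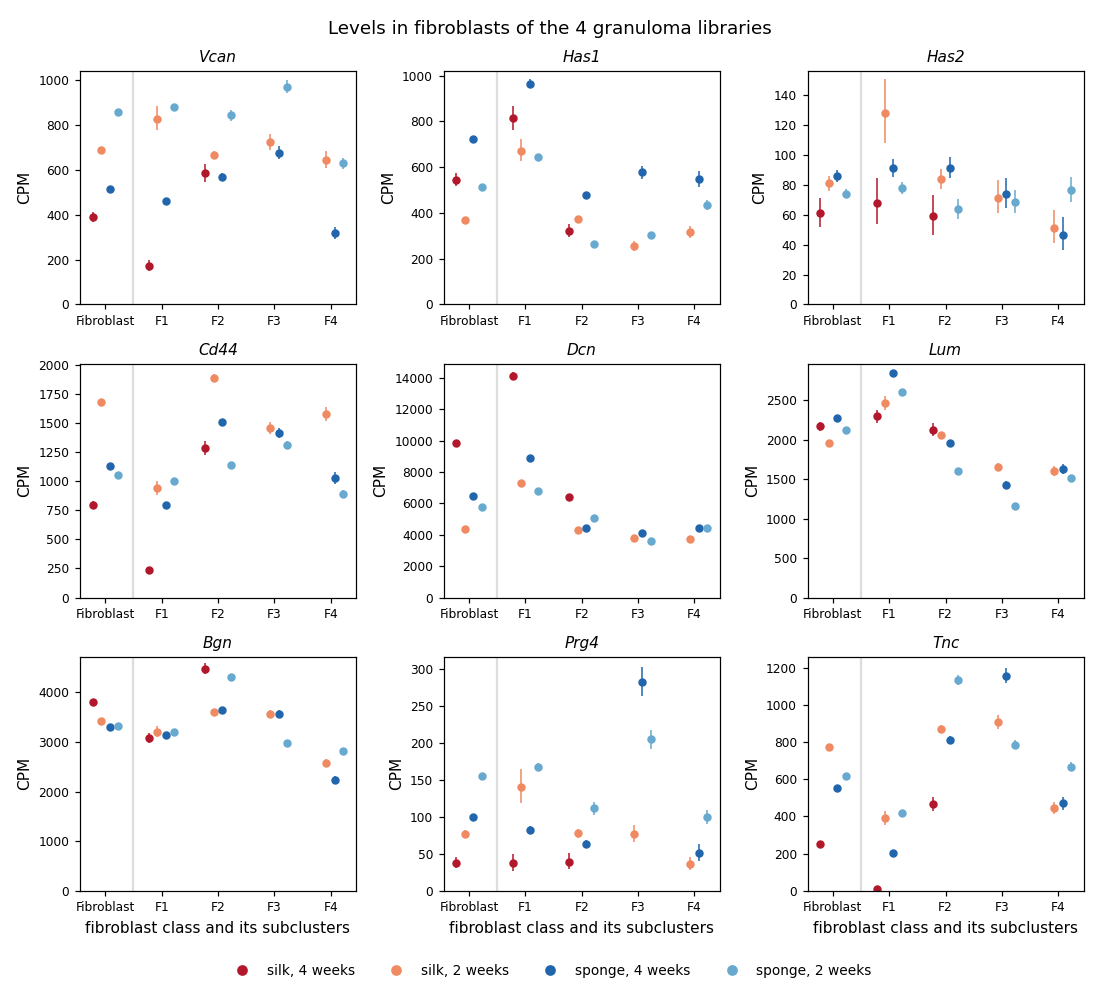
CPM of each gene in the fibroblast class and in subclusters F1 to F4 of the 4 granuloma libraries, with 95% counting intervals; subclusters with under 50 cells in a library are not drawn. In F1, silk at 4 weeks had 233 CPM of Cd44 and 8.38 CPM of Tnc, each the lowest of the 4 libraries, and 14148 CPM of Dcn, the highest.

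All 9 genes had enough counts for the rule in each fibroblast comparison. In silk against sponge at 4 weeks, none was at least 2-fold higher, where 2.21% of 3310 genes were, and 2 were lower, Tnc and Prg4, where 1.09% of genes were. In silk against sponge at 2 weeks, 0 were higher and 0 lower, against 1.48% and 2.31% of 3374 genes. In silk at 4 against 2 weeks, 1 was higher, Dcn, against 5.39% of 3564 genes, and 2 were lower, Cd44 and Tnc, against 3.73%. In sponge at 4 against 2 weeks, 0 were higher and 0 lower, against 0.928% and 1.11% of 3232 genes. Median log2 ratios of the 9 genes were -0.41, -0.12, -0.40 and 0.10 in these 4 comparisons, beside -0.01, 0.12, -0.13 and 0.01 over all genes assessed. With 50 CPM added in place of 10 CPM, 0 genes were apart in silk against sponge at 4 weeks. The 4 comparisons share libraries and are not independent of each other.

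In subcluster F1, Tnc, Cd44 and Vcan were lower in silk at 4 weeks than in the other 3 granulomas. Tnc had 8.38 CPM in F1 of silk at 4 weeks (10 UMIs in 126 cells), 391 CPM in silk at 2 weeks, 202 CPM in sponge at 4 weeks and 419.7 CPM in sponge at 2 weeks. Its log2 ratio was -4.52 (-5.65 to -3.71) for silk against sponge at 4 weeks and -5.48 (-6.62 to -4.65) for silk at 4 against 2 weeks, whereas silk against sponge at 2 weeks gave -0.10 (-0.24 to 0.04). Cd44 had 233, 939, 793 and 1002 CPM in the order silk at 4 weeks, silk at 2 weeks, sponge at 4 weeks and sponge at 2 weeks, and Vcan had 172, 828, 460.5 and 881 CPM. In silk against sponge at 4 weeks Cd44 had a log2 ratio of -1.76 (-1.94 to -1.59) and Vcan one of -1.42 (-1.63 to -1.22), and in silk at 4 against 2 weeks the ratios were -2.01 and -2.27. Around sponge, 4 against 2 weeks gave -1.06 for Tnc, -0.94 for Vcan and -0.34 for Cd44.

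The regions just upstream of these 3 genes are shown because their transcripts were low together in F1 around silk at 4 weeks. Each is the 250 bases before the annotated start, from RefSeq (GRCm38.p6), written 5′ to 3′ on the gene's own strand, with motif matches in capitals. The regions are chr4:64047016-64047265 for Tnc, chr2:102901666-102901915 for Cd44 and chr13:89742513-89742762 for Vcan, all on the minus strand.
Tnc: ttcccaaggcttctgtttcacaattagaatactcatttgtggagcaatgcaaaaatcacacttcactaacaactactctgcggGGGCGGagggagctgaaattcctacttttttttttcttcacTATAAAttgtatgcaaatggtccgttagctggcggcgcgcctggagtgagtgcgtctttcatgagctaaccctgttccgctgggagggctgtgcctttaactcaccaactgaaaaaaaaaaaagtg
Cd44: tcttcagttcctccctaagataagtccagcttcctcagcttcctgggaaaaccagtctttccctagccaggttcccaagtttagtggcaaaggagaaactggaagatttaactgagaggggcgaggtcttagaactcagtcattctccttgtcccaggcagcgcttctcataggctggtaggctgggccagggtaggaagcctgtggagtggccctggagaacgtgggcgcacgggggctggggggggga
Vcan: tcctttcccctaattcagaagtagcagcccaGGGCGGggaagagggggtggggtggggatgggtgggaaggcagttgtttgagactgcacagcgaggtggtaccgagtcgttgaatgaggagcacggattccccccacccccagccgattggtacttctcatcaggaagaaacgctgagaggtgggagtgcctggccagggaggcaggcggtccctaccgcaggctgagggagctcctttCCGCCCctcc
The motifs searched on both strands were AP-1 (TGANTCA), the TATA box (TATAAA) and the GC box (GGGCGG), which were found in 6.749%, 12.37% and 32.74% of 32851 RefSeq promoter windows of the same length. Counted back from the start, Tnc had a TATA box at position -126 and a GC box at position -167, and Vcan had 2 GC boxes, the first at position -219. No match overlapped a match of another motif. Cd44 had none of the 3 motifs in this window, and AP-1 letters were absent from the windows of all 5 genes with a promoter in the RefSeq table (Bgn, Cd44, Has1, Tnc and Vcan). A match describes letters only.

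In F1, Dcn was highest in silk at 4 weeks and Bgn kept to a narrow range. Dcn had 14148, 7324, 8905 and 6776 CPM in silk at 4 weeks, silk at 2 weeks, sponge at 4 weeks and sponge at 2 weeks, with log2 ratios of 0.67 for silk against sponge at 4 weeks and 0.95 for silk at 4 against 2 weeks. Bgn stayed between 3078 and 3212 CPM, with log2 ratios of -0.06 to 0.005. Prg4 had 36.9, 140.5, 82.5 and 168 CPM in that order, with 44 UMIs in silk at 4 weeks. By the 2-fold rule, 3 of the 9 genes were lower in F1 in silk against sponge at 4 weeks (Cd44, Tnc, Vcan; 2.49% of all genes assessed) and 0 higher (1.99%). In F1 of silk at 4 against 2 weeks, 4 were lower (these and Prg4; 6.24%) and 0 higher (6.65%). In sponge at 4 against 2 weeks 1 was lower (Tnc; 0.748%) and 0 higher (1.11%). At 2 weeks silk against sponge gave 0 lower (2.43%) and 0 higher (2.14%).

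F2 had more Tnc than F1 in each granuloma and a smaller range. Tnc had 465 CPM in silk at 4 weeks, 867 CPM in silk at 2 weeks, 811 CPM in sponge at 4 weeks and 1136 CPM in sponge at 2 weeks. Cd44 had 1286, 1889.6, 1505 and 1134 CPM and Vcan 584, 665, 568 and 842 CPM in the same order. In each comparison 0 of the 9 genes were 2-fold higher in F2 and 0 lower, where 3.23%, 1.15%, 5.15% and 1.75% of all genes assessed were higher and 1.78%, 1.58%, 4.96% and 2.75% lower for silk against sponge at 4 weeks, at 2 weeks, and 4 against 2 weeks around silk and around sponge. The 58 F2 cells of silk at 4 weeks included 1 cell with 17.5% of their Tnc UMIs.

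Other measures also differed between F1 libraries, and their part in these results was not tested. The summed level of 19 dissociation-stress genes in F1 was 29616 CPM in silk at 4 weeks, 19843 CPM in silk at 2 weeks, 23460 CPM in sponge at 4 weeks and 14478 CPM in sponge at 2 weeks. Median depth in F1 was 8055, 9236, 10375 and 14343 UMIs, and F1 numbered 126, 105, 829 and 1358 cells, in the same order. The monocyte, macrophage list summed to 70.4, 99.3, 116 and 137 CPM in F1, with 8 of its 10 markers detected in silk at 4 weeks (Adgre1 and Fcgr1 at 0) and all 10 elsewhere.

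F3 and F4 had under 50 cells in silk at 4 weeks and are described for the other 3 libraries. Prg4 was at 76.5 CPM in F3 of silk at 2 weeks, 283 CPM in sponge at 4 weeks and 205 CPM in sponge at 2 weeks, and 1 cell held 24.1% of the sponge 4-week UMIs. In F4 it was at 36.0, 50.6 and 99.6 CPM in the same order. Silk was thus lower than sponge at 2 weeks in both, with log2 ratios of -1.42 in F3 and -1.46 in F4, against -0.25 (-0.49 to -0.02) in F1. Vcan in F4 was at 644, 317 and 629 CPM. F4 also held macrophage transcripts: the monocyte, macrophage list summed to 5613, 5988 and 4795 CPM in silk at 2 weeks, sponge at 4 weeks and sponge at 2 weeks. In the same order, 76.1%, 60.6% and 94.0% of F4 cells had 3 or more markers of another class. For F3 cells these shares were 14.3%, 16.7% and 31.9%. The part of such cells in the F3 and F4 levels was not tested. Without F4 the class comparisons gave the same counts of 2-fold genes, namely 2, 0, 3 and 0 for silk against sponge at 4 weeks, at 2 weeks, and 4 against 2 weeks in silk and in sponge. The 19 F4 cells of silk at 4 weeks held 1 Bgn UMI and 2 Lum UMIs in all.

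**Figure D3:**
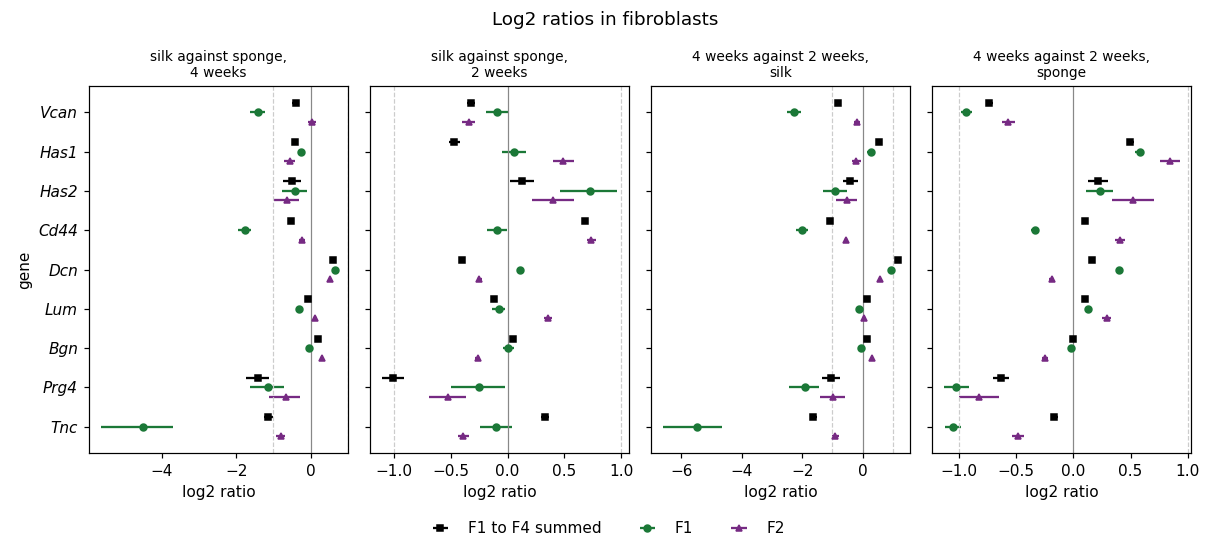
Log2 ratios of the 9 genes in the fibroblast class (squares), F1 (circles) and F2 (triangles) for the 4 comparisons, with 95% counting intervals; dashed lines mark 2-fold and the panels have different axis ranges. In the 2 panels with silk at 4 weeks, Tnc, Cd44 and Vcan of F1 lie far left of the class and F2 values, at -4.52, -1.76 and -1.42 against sponge.

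Vcan and Cd44 were the only 2 of the 9 genes with enough counts for the rule in Mo-Mac cells. Monocytes are known to make versican, and CD44 is carried by most leukocytes. Both were higher in granuloma than in control Mo-Mac cells. These are largely different subclusters, because C1, C2 and C10 made up 81.9%, 8.92% and 6.95% of the deposited control Mo-Mac cells and at most 2.26% each in a granuloma, where most cells lay in C3 to C8. Cell makeup and level within a cell type therefore cannot be told apart in comparisons with the control. Vcan had 34.1 CPM in silk at 4 weeks, 147 CPM in silk at 2 weeks, 82.7 CPM in sponge at 4 weeks and 245 CPM in sponge at 2 weeks, against 1.30 CPM in the control. Each granuloma was above the control, and both 2-week granulomas were above both 4-week ones. Log2 ratios against the control were 4.70 (4.35 to 5.07), 6.81 (6.53 to 7.12), 5.98 (5.69 to 6.30) and 7.55 (7.26 to 7.86). The first of these was not assessed by the rule, because 34.1 CPM lies under its 50 CPM minimum. These 4 comparisons share the same control library.

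Within the granulomas, Mo-Mac Vcan was lower at 4 than at 2 weeks by -2.11 (-2.31 to -1.91) around silk and -1.57 (-1.64 to -1.49) around sponge. Silk against sponge gave -1.28 (-1.49 to -1.08) at 4 weeks, and -0.74 (-0.78 to -0.69) was the ratio at 2 weeks. Of Mo-Mac cells, 1.05% in silk at 4 weeks and 2.82% in silk at 2 weeks had 3 or more markers of another class. The shares were 25.9% in sponge at 4 weeks and 24.8% in sponge at 2 weeks. The part of such cells in these ratios was not tested. The mixture of subclusters differed at 2 weeks, with 59.2% C7 and 1.85% C4 around silk and 15.1% C7 and 34.2% C4 around sponge. With the same subcluster weights in both libraries, the 2-week ratio of silk against sponge was -0.30. That of sponge at 4 against 2 weeks was -0.72, under 2-fold. The other ratios were -1.26 for silk against sponge at 4 weeks and -2.27 for silk at 4 against 2 weeks. After thinning to 1000 UMIs, 4.57%, 13.1%, 7.83% and 18.4% of Mo-Mac cells had a Vcan UMI in silk at 4 weeks, silk at 2 weeks, sponge at 4 weeks and sponge at 2 weeks, against 0.0941% in the control; unthinned shares were 11.1%, 30.7%, 16.7%, 38.1% and 1.17%. In NK/T cells of the same libraries, taken as cells that should lack Vcan, the unthinned shares were 0.654%, 2.61%, 1.95%, 4.33% and 0%. Median depths of Mo-Mac cells were 4217, 4337, 3078, 4729 and 7749 UMIs and those of NK/T cells 2369, 2553, 2526, 3109.5 and 2725 UMIs.

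Vcan was concentrated in some myeloid subclusters. C3 had 113 CPM in silk at 4 weeks, 259 CPM in silk at 2 weeks, 291 CPM in sponge at 4 weeks and 777 CPM in sponge at 2 weeks, and C6 had 85.7, 332, 259 and 541 CPM in the same order. C4 had 243, 280.4 and 336 CPM in silk at 2 weeks, sponge at 4 weeks and sponge at 2 weeks. C5 and C8 lay under 50 CPM in each granuloma with at least 50 cells, and the control subclusters C1 and C2 had 1.49 and 0.664 CPM. The lower level at 4 weeks was also seen inside subclusters, with log2 ratios around silk and around sponge of -1.18 and -1.42 in C3, -1.94 and -1.06 in C6, and -2.62 and -1.02 in C7. In C3 and C6 the silk 4-week level was lower than the sponge 4-week level, by -1.35 and -1.58. In C7 silk against sponge gave -0.81 at 4 weeks and 0.80 at 2 weeks, the second opposite to the class ratio.

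Cd44 in Mo-Mac cells had 1353 CPM in silk at 4 weeks, 1793 CPM in silk at 2 weeks, 1644 CPM in sponge at 4 weeks and 1133 CPM in sponge at 2 weeks, against 804 CPM in the control. All 4 granulomas were above the control, by log2 0.75, 1.16, 1.03 and 0.49. Between times the materials went opposite ways: 4 against 2 weeks gave -0.41 (-0.44 to -0.37) around silk and 0.54 (0.52 to 0.56) around sponge, which was not tested as a difference. C6 had the most Cd44 among the granuloma subclusters plotted, except in silk at 4 weeks, where C3 had 2034 CPM and C6 1777 CPM. C6 cells were shallow, with median depths of 948, 1652, 1374 and 1720 UMIs in the same library order. Those of C7 cells were 7009, 6257, 4815 and 6793.5 UMIs. The control subclusters C1 and C2 had 865 and 594 CPM.

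By the 2-fold rule in Mo-Mac cells against the control, 0 of 1 assessed gene was higher in silk at 4 weeks (9.97% of all genes assessed), 2 of 2 in silk at 2 weeks (10.9%), 2 of 2 in sponge at 4 weeks (11%) and 1 of 2, Vcan, in sponge at 2 weeks (11.9%). None was lower in these 4 comparisons, where 5.15%, 5.85%, 5.68% and 5.67% of genes were. Vcan was the 1 gene lower in silk against sponge at 4 weeks (0.614% lower, 0.42% higher), in silk at 4 against 2 weeks (0.961% lower, 0.833% higher) and in sponge at 4 against 2 weeks (4.04% lower, 1.86% higher). Silk against sponge at 2 weeks gave 0 of 2 in either direction (4.65% lower, 1.75% higher).

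**Figure D4:**
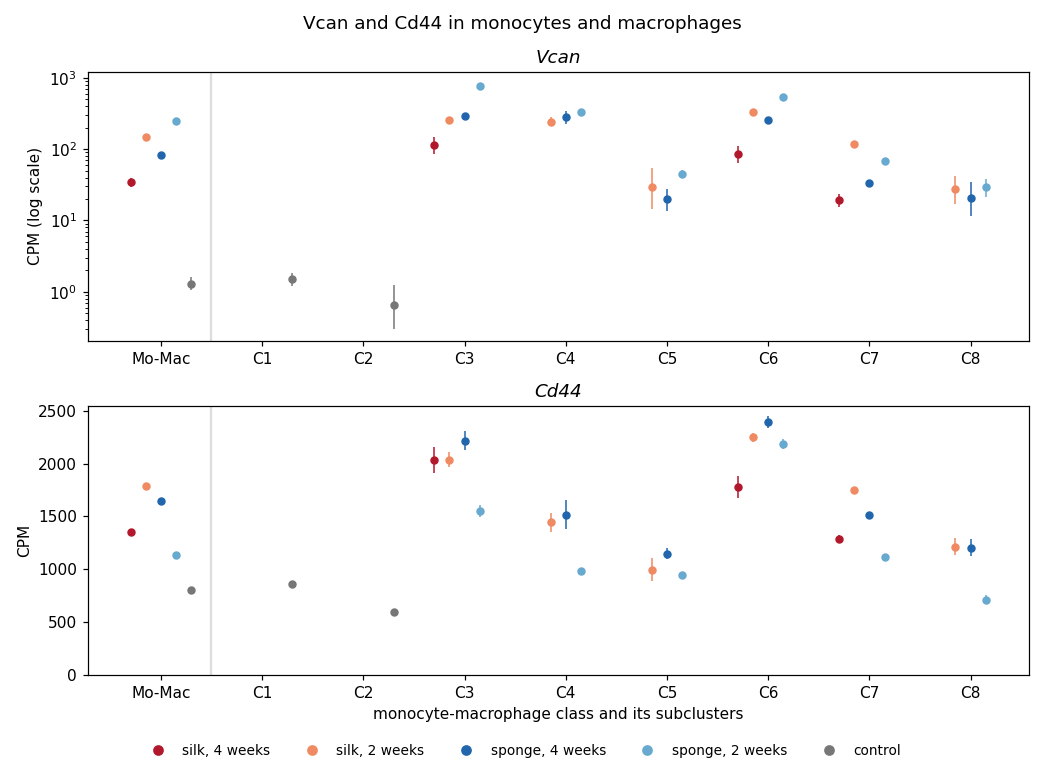
CPM of Vcan (log axis) and Cd44 (linear axis) in Mo-Mac cells and their subclusters with at least 50 cells, by library, with 95% counting intervals. The control points of Vcan lie at 1.30 CPM for the class, under every granuloma point, and the class values of Cd44 lie between 1133 and 1793 CPM in granulomas against 804 CPM in the control.

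The remaining 7 genes stood in Mo-Mac cells at 3.40% or less of the fibroblast level of the same library, and fibroblast markers at 1.23% or less. The 8 fibroblast markers stood in Mo-Mac cells at a median of 0.0720%, 0.213%, 0.806% and 0.629% of their fibroblast level in silk at 4 weeks, silk at 2 weeks, sponge at 4 weeks and sponge at 2 weeks. Dcn stood at 0.104%, 0.171%, 0.620% and 0.459%, Bgn at 0.0664%, 0.195%, 0.599% and 0.622%, and Lum at 0.0799%, 0.208%, 1.03% and 0.682%. The lowest and highest marker stood at 0.0585% and 0.162%, 0.143% and 0.255%, 0.771% and 1.23%, and 0.411% and 0.722% in these libraries. Has1 stood at 0.0580%, 0.866%, 1.34% and 1.17%, Tnc at 0.315%, 0.336%, 1.44% and 0.913%, and Prg4 at 0.422%, 3.40%, 1.44% and 0.933%. Dcn, Bgn and Lum did not pass the highest marker in any of the 4 libraries, whereas Tnc and Prg4 lay above it in all 4 and Has1 in all but silk at 4 weeks. The silk 4-week values rest on 5 Tnc UMIs and 1 Prg4 UMI. Has2 had 0 UMIs in the 1045 Mo-Mac cells of silk at 4 weeks. It had 9, 23 and 18 UMIs (0.211, 1.10 and 0.427 CPM) in silk at 2 weeks, sponge at 4 weeks and sponge at 2 weeks. Vcan at 8.76%, 21.4%, 16.1% and 28.6% and Cd44 at 171%, 107%, 146% and 108% stood far above the markers.

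**Figure D5:**
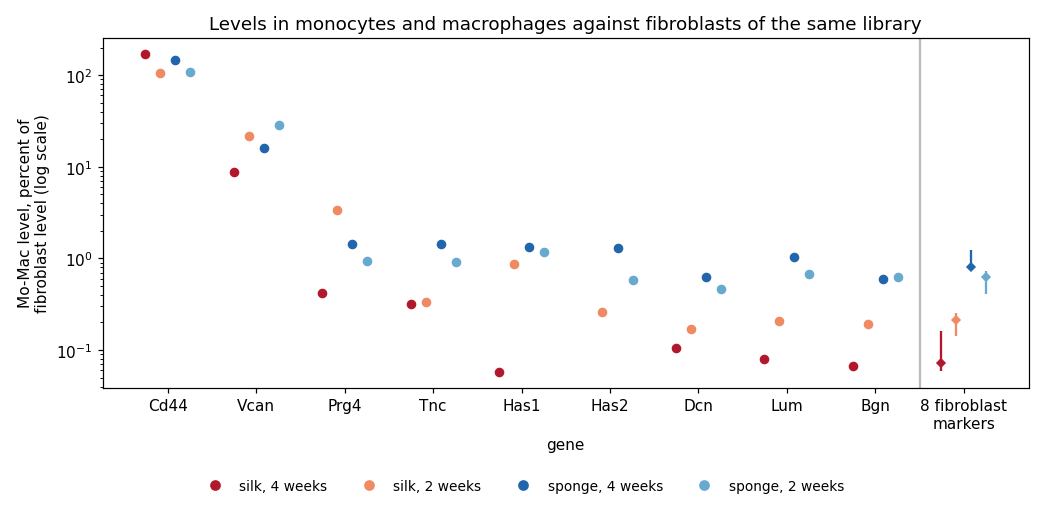
Level in Mo-Mac cells as a percent of the fibroblast level of the same library (log axis), for each gene and for 8 fibroblast markers (diamonds are medians, lines the lowest and highest marker); a value of 0 (Has2, silk at 4 weeks) is not drawn. Cd44 lies between 107% and 171% and Vcan between 8.76% and 28.6%, above the markers, whose medians lie between 0.0720% and 0.806%.

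Prg4 was the exception among these genes, because its highest Mo-Mac level was in the control. It had 0.158, 2.62, 1.44 and 1.45 CPM in Mo-Mac cells of silk at 4 weeks, silk at 2 weeks, sponge at 4 weeks and sponge at 2 weeks, from 1, 112, 30 and 61 UMIs, against 19.0 CPM from 1409 UMIs in the control. All 4 granulomas lay under the control, with log2 ratios from -2.85 (-3.14 to -2.57) in silk at 2 weeks to -3.70 (-4.11 to -3.34) in sponge at 2 weeks, and with 1 UMI in silk at 4 weeks the ratio was -6.32 (-12.21 to -4.43). None of these passed the 50 CPM minimum. In the control, 1386 UMIs lay in 393 of 6476 C1 cells, and the highest cell held 2.45% of them. Unthinned, 5.24% of control Mo-Mac cells had a Prg4 UMI, against 0.545% of control NK/T cells; after thinning the shares were 1.25% and 0.283%. The control held 1 fibroblast, which had 0 Prg4 UMIs, and the fibroblast list summed to 0.175 CPM in its Mo-Mac cells. In silk at 2 weeks, 75 of the 112 UMIs lay in 2 of 26 C1 cells, 41 of them in 1 cell. Without C1 the ratio of silk against sponge at 2 weeks was -0.73 in place of 0.85. Lum and Tnc had 0 UMIs in the whole control library.

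Neutrophils had the highest Cd44 levels of the classes with at least 50 cells in the granulomas. They had 3866 CPM in silk at 4 weeks (69 cells), 3057 CPM in silk at 2 weeks, 3984 CPM in sponge at 4 weeks and 1792 CPM in sponge at 2 weeks. Sponge at 2 weeks was the lowest, as it was in NK/T cells, which had 753, 723, 823 and 359 CPM in the same order against 382 CPM in the control. The log2 ratio of sponge at 4 against 2 weeks was 1.15 (1.07 to 1.23) in neutrophils and 1.20 (1.05 to 1.35) in NK/T cells. Among control B cells Cd44 stood at 458 CPM.

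Endothelial cells had little Cd44 in silk at 4 weeks, with 9.96 CPM from 11 UMIs in 221 cells, beside 203 CPM in silk at 2 weeks, 138 CPM in sponge at 4 weeks and 184 CPM in sponge at 2 weeks. The endothelial level was 0.736%, 11.3%, 8.37% and 16.2% of the Mo-Mac level in that order. The monocyte, macrophage list stood in the same cells at medians of 0.691%, 9.70%, 5.40% and 6.54% of its Mo-Mac level, and summed to 103, 1516, 924 and 1096 CPM; its part in the endothelial Cd44 level was not tested. Bgn was present in endothelial cells at 421, 397, 253 and 310.4 CPM, and Tnc at 60.6, 43.0, 48.0 and 50.1 CPM. Dcn, at 3.62, 38.9, 230.3 and 174 CPM, and Lum, at 0.905, 9.78, 31.8 and 79.7 CPM, varied more between libraries. Vcan had 37.1 (41 UMIs), 93.1, 47.2 and 159 CPM in endothelial cells, or 109%, 63.3%, 57.1% and 64.8% of its Mo-Mac level. Its log2 ratio of 4 against 2 weeks was -1.31 (-1.83 to -0.86) around silk and -1.75 (-1.99 to -1.52) around sponge. The part of other cells' transcripts in this level was not tested. The myocyte class, with at least 50 cells only around sponge, had 1155 CPM of Bgn at 4 weeks and 1255 CPM at 2 weeks, and Has2 at 28.9 and 60.3 CPM.

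Genes with a similar pattern were ranked by Pearson correlation of log2(CPM + 10) over 68 units, each a subcluster or undivided class of 1 library, among 7599 genes. These units share libraries, depth and cell classes, so the values are descriptions. The closest gene was Dpt for Has1 (r = 0.98), Cd248 for Has2 (0.98), Col1a2 for Dcn (0.98), Dcn for Lum (0.98), Serpinh1 for Bgn (0.99), Bcat1 for Prg4 (0.96) and Tln2 for Tnc (0.96). Vcan was closest to Slc39a14 (0.90) and Cd44 to Glipr1 (0.80). Cd44 had values of -0.26 to 0.05 with the other 8 genes. Within the 14 fibroblast units the order changed: Cd44 and Tnc had r = 0.91, Vcan and Tnc 0.80, Vcan and Cd44 0.73, whereas Dcn had -0.86 with Tnc and -0.85 with Cd44 and 0.76 with Lum. Over 24 Mo-Mac units Vcan and Cd44 had r = 0.76.

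Other genes of the pathway were counted from lists. Of 8 assessed genes for hyaluronan synthesis, binding and turnover in fibroblasts, 1 was 2-fold higher and 0 lower in silk against sponge at 4 weeks and in silk at 4 against 2 weeks, and 0 higher and 1 lower in silk against sponge at 2 weeks and in sponge at 4 against 2 weeks. The higher gene was Itih5, a relative of the heavy chains bound to hyaluronan, with 528 CPM in silk at 4 weeks, 149 CPM in silk at 2 weeks, 225 CPM in sponge at 4 weeks and 179.8 CPM in sponge at 2 weeks. The lower gene was Ptx3, a pentraxin that takes part in cross-linking hyaluronan, with 97.9, 118, 161 and 394 CPM. Both genes were chosen after their values were seen. Over all genes assessed in fibroblasts, 2.21%, 1.48%, 5.39% and 0.928% were higher and 1.09%, 2.31%, 3.73% and 1.11% lower in silk against sponge at 4 weeks, at 2 weeks, and in 4 against 2 weeks around silk and around sponge.

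Of the small leucine-rich proteoglycans outside the 9 genes, 1 of 5 assessed was higher in silk against sponge at 4 weeks and 2 of 6 in silk at 4 against 2 weeks, and none was lower in the 4 comparisons, beside 2.21% and 5.39% of all genes higher in these 2. Ogn, the osteoglycin gene, had 347 CPM in silk at 4 weeks, 96.0 CPM in silk at 2 weeks, 128 CPM in sponge at 4 weeks and 167 CPM in sponge at 2 weeks. Podn, the podocan gene, was the other, with 113 CPM in silk at 4 weeks against 36.1 CPM in silk at 2 weeks. Ogn thus had its highest level where Dcn had its highest. Ogn and Podn were chosen after their values were seen. The list of large, membrane and basement membrane proteoglycans also holds Smoc2, which encodes a secreted matricellular protein related to SPARC. Of this list, 1, 3, 1 and 1 were higher and 0, 0, 2 and 0 lower in silk against sponge at 4 weeks, at 2 weeks, and in 4 against 2 weeks around silk and around sponge, of 12, 10, 12 and 10 assessed. Smoc2 was the 1 gene higher at 4 than at 2 weeks around each material. It had 354 against 47.1 CPM around silk and 146 against 59.8 CPM around sponge. No other gene of the list was 2-fold higher in these time comparisons. Of 14, 12, 15 and 13 genes for glycosaminoglycan chain synthesis, 0, 0, 1 and 0 were higher and 1, 0, 1 and 0 lower, against the shares over all genes given above.

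In Mo-Mac cells against the control, 3, 4, 3 and 3 of the large and membrane proteoglycans were higher in silk at 4 weeks, silk at 2 weeks, sponge at 4 weeks and sponge at 2 weeks, and 1, 1, 1 and 0 lower, of 5, 5, 5 and 4 assessed. Over all genes, 9.97%, 10.9%, 11% and 11.9% were higher and 5.15%, 5.85%, 5.68% and 5.67% lower. Sdc4, a cell surface heparan sulfate proteoglycan, had 191, 242, 204 and 535 CPM in the granulomas against 37.0 CPM in the control. Sdc1 had 149, 241, 117 and 99.7 CPM against 34.9 CPM. Among proteases that can cut versican, Mmp14, a membrane-bound metalloprotease, had 270.0, 386, 399.7 and 282 CPM against 22.8 CPM. Thbs1, which encodes the matricellular protein thrombospondin 1, had 479.9, 979.6, 749 and 1609.8 CPM against 97.0 CPM. The list of dissociation-stress transcripts also differed in granuloma Mo-Mac cells, with 15, 8, 13 and 12 genes 2-fold higher and 1, 2, 1 and 1 lower, of 19, 18, 19 and 19 assessed. Nr4a1, Ier3 and Hspa1b were higher in all 4 comparisons, and Klf2, a transcription factor gene, was lower in all 4. The sum of the list was 13080, 9573, 12620 and 11732 CPM against 5260 CPM in the control. Their part in the Vcan and Cd44 differences was not tested.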

How the data were processed

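Single-cell libraries of 4 mouse granulomas and of thioglycollate-elicited macrophages were made with a droplet 3′ kit, per the labels' protocols. The deposited table holds the authors' raw UMI counts (21617 genes, 41191 cells), per the file headers. The authors also deposited, per cell, the percent of mitochondrial UMIs (up to 25.0%), the number of detected genes (201 or more), and other columns, which give library, class and subcluster names, per the file headers. Cell Ranger 3.0.0, Seurat 3.0 and mm10 are named per the submitters' processing notes, without their roles. The counting strand is not given in the sources used here, and Has2, Prg4, Tnc and Vcan overlap genes on the other strand that are also counted (Has2os, Tpr, 8030451A03Rik, Gm4117).

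Counts were summed per library and class or subcluster and scaled to CPM. Subclusters KC, BP and C9 and the fibroblasts named low quality were left out of the class levels and ratios, as their markers pointed to other cells or to poor quality. They were kept in the shares of a library's UMIs by deposited class. Log2 ratios carry 0.5 added counts and a 95% interval from the conditional binomial distribution, and shares of cells an exact Clopper-Pearson one. A gene at 0 counts has a limit of 3 counts. Reads of 1 cell and cells of 1 library are not independent, so intervals cover counting error only. A gene needed 100 UMIs and 50 CPM in the library with more of it, and a 2-fold ratio with 10 CPM added, to be called. Units needed 50 cells. No doublet caller was run; an alternative left out cells with 3 or more markers of another class. Python 3.11.15, numpy 2.4.6, scipy 1.17.1, pandas 2.3.3, matplotlib 3.10.9 and, for TMM factors alone, R 4.3.3 with edgeR 4.0.16 were used, and the ratio step was tested on simulated data.

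All 9 genes are named throughout. From each pathway list, up to 3 genes per direction could be named if called in every contrast of a comparison, and not all of these are described. Sparc, Spp1 and Mmp12 met this rule in Mo-Mac cells and are not described. Itih5, Ptx3, Ogn, Podn, Adamts8, Mmp3 and Timp3 were named outside the rule, after their values were seen. For each of the 9 genes the closest of 3 ranked genes by correlation was named. The genes and lists were chosen with earlier results of these data known. Promoters came from RefSeq (GRCm38.p6), and Has2, Dcn, Lum and Prg4 have no entry there. Gene positions on GRCm38 (GENCODE M21) are X:73483602-73495933 for Bgn, 2:102811141-102901665 for Cd44, 10:97479609-97518143 for Dcn, 17:17843323-17855205 for Has1, 15:56665627-56694539 for Has2, 10:97565128-97572703 for Lum, 1:150449412-150466165 for Prg4, 4:63959785-64047015 for Tnc and 13:89655312-89742509 for Vcan.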

Additional observations from a re-analysis of the deposited data

Results flagged for a closer look

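The same contrast ran opposite ways in the 2 materials or at the 2 times, with both counting intervals off 0 and 20 or more UMIs behind each ratio, in 34 cases. In 8 of these both log2 ratios were at least 0.5 in size, a size chosen after the data were seen. With 1 library per group, none of these differences was tested.

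Cd44 in fibroblasts was lower around silk than around sponge at 4 weeks (-0.51) and higher at 2 weeks (0.68). With the same subcluster weights these ratios were -0.68 and 0.34. In F1 the 2-week ratio was -0.09 (-0.18 to -0.004), the same direction as at 4 weeks. It was 0.74 in F2, 0.15 in F3 and 0.82 in F4. Vcan in subcluster C7 had silk against sponge ratios of -0.81 at 4 weeks and 0.80 at 2 weeks. Prg4 in Mo-Mac cells had ratios of -2.63 at 4 weeks and 0.85 at 2 weeks, from 1 UMI around silk and 30 around sponge at 4 weeks, and 112 around silk and 61 around sponge at 2 weeks. Of those 112, 75 lay in 2 C1 cells, and without C1 the 2-week ratio was -0.73, the same direction as at 4 weeks.

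Of 4 against 2 weeks, Has2 in F2 had a ratio of -0.51 around silk and 0.52 around sponge. In Mo-Mac cells Has1 had -3.03 around silk and 0.69 around sponge, and Lum had -1.17 and 0.70. In C7 Has1 had -4.89 around silk and 1.28 around sponge, and Lum had -1.51 and 1.11. The Mo-Mac levels of Has1 and Lum stood between 0.0580% and 1.34% of the fibroblast level, and the summed level of the fibroblast list in Mo-Mac cells was 62.8, 117, 581 and 432 CPM in silk at 4 weeks, silk at 2 weeks, sponge at 4 weeks and sponge at 2 weeks; its part was not tested.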

How the results depend on the processing

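No paired analysis was possible because each group has 1 library, and no library could be left out of a group. In fibroblasts, the 2 genes apart in silk against sponge at 4 weeks became 0 with 50 CPM added and 1 with a mean over cells; the 0 at 2 weeks became 1 with TMM factors and 1 with median-of-ratios factors; the 3 of silk at 4 against 2 weeks became 5 in thinned cells, 4 without cells with 3 markers of another class, 4 with a mean over cells and 2 with TMM factors; the 0 of sponge became 1 in thinned cells. In Mo-Mac cells, the 1 of silk against sponge at 4 weeks became 4 with no minimum and 0 with 50 CPM added, and the 0 at 2 weeks became 1 with no minimum. Against the control, no minimum gave 2 for silk at 4 weeks in place of 0, 6 for sponge at 4 weeks in place of 2 and 5 for sponge at 2 weeks in place of 1; sponge at 4 weeks gave 1 with TMM, with median-of-ratios factors, with 50 CPM added and with all cells of the deposited class. Lum in endothelial cells, sponge at 4 against 2 weeks, was -1.32, but 0.036 in thinned cells and 0.31 without cells with 3 markers of another class; the cause was not tested.

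TMM and median-of-ratios factors shifted fibroblast ratios of silk against sponge at 2 weeks by -0.20 and -0.18, and there gave Has2 -0.07 and -0.05 in place of 0.13 and Bgn -0.15 and -0.13 in place of 0.04. The same subcluster weights in both libraries gave -0.67 for Cd44, -1.05 for Tnc and 0.71 for Dcn in silk at 4 against 2 weeks. Over 396 ratios, 50 CPM added moved 135 by over 1.5-fold and turned 5, thinning moved 92 and turned 37, a mean over cells moved 65 and turned 30, and leaving out cells with 3 markers of another class moved 34 and turned 25 of 378. In F1 of silk at 4 weeks, Tnc had 0 UMIs in thinned cells, so its thinned ratio is set by the 0.5 added counts. Leaving out F4 or C1, and the same subcluster weights in Mo-Mac cells, were added after the data were seen. The 211 fibroblasts of silk at 4 weeks, against 798 to 2127 elsewhere, limit every comparison with that library.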

Other observations

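Among proteases that can cut versican-type proteoglycans, Adamts8 stood out in fibroblasts of silk at 4 weeks; it and the genes below were chosen after their values were seen. Adamts8 had 444 CPM there (1174 UMIs), 1.75 CPM in silk at 2 weeks, 1.35 CPM in sponge at 4 weeks and 2.78 CPM in sponge at 2 weeks. All 1174 UMIs lay in subcluster F2, in 21 of its 58 cells, and 1 cell held 22.3% of them. In F1 of silk at 4 weeks Adamts8 had 0 UMIs in 126 cells, an upper limit of 2.51 CPM by 3 counts.

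Mmp3, the stromelysin gene, was highest in the other subcluster. It had 3029.6 CPM in F1 of silk at 4 weeks, 236 CPM in silk at 2 weeks, 1350.4 CPM in sponge at 4 weeks and 666 CPM in sponge at 2 weeks, so that silk at 4 weeks was the highest where Tnc, Cd44 and Vcan were the lowest. Timp3, an inhibitor of these proteases, went the other way in F2, with 17.5 CPM in silk at 4 weeks (24 UMIs), 658 CPM in silk at 2 weeks, 414 CPM in sponge at 4 weeks and 277 CPM in sponge at 2 weeks. These levels come from 1 library per group and were not tested.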
